A study of Mus musculus with 8 samples.

Results

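The 40 genes studied here belong to autophagy, the lysosome and muscle atrophy, and were followed in the left ventricle of mice after pressure overload and under an amino acid diet. They were taken by gene symbol from the deposited expression table and had to reach a value of 1 in at least 2 libraries. All 40 of 40 did, out of 16432 genes that passed the same filter. By role they comprise 5 genes of the ULK1 initiation complex, 5 of the class III PI3-kinase complex, 3 of ATG9 vesicles and WIPI proteins, 6 ATG12 and ATG8 conjugation enzymes, 5 ATG8 proteins, 4 cargo receptors, 4 transcription factors, 5 lysosomal membrane proteins and proteases, and 3 ubiquitin ligases.

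The mice were male, of the C57BL/6N strain and 8 weeks old at the start, and their ventricular polyadenylated RNA gave 8 libraries. Transverse aortic constriction (TAC), which narrows the aortic arch and makes the left ventricle pump against a raised pressure, was set against a sham operation. The SFA diet is a low fat diet, and in the SFA-EAA diet free essential amino acids took the place of 93.5% of its casein. Tissue was taken 4 weeks after the operation, and each of the 4 groups, named by operation and diet, held 2 libraries. Nothing in the labels shows whether both libraries of a group are different animals, and p-values reflect only how much these samples vary. In bulk tissue, fewer cells of a type and less RNA per cell cannot be told apart.

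In autophagy the ULK1 complex starts a membrane that the class III PI3-kinase complex marks with a lipid, WIPI proteins and ATG9 vesicles extend, and the conjugation enzymes decorate with ATG8 proteins. Cargo receptors tie ubiquitinated cargo to the ATG8 proteins, and fusion with lysosomes exposes the content to cathepsins. Amino acids hold this process back through mTORC1, a kinase that inhibits ULK1 and keeps TFEB, the regulator of lysosomal genes, out of the nucleus, while FoxO factors raise both autophagy genes and the muscle ubiquitin ligases Fbxo32 (atrogin-1) and Trim63 (MuRF1). Many of these steps are set by phosphorylation, lipidation or protein turnover, which RNA levels do not report.

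Deposited values, which the authors normalized with edgeR, summed to between 5136441 and 6298743 per library, and how many reads a value of 1 stood for was not established. All 8 cardiomyocyte markers were present in every library, with sums between 320005 and 430182, and the endothelial markers summed to 3476 to 4074. Of 4 atrial markers Bmp10 was at 0 throughout, and the list summed to 1387.8 (sham SFA replicate 1) and 1079.5 (TAC SFA replicate 2) in 1 library each of the SFA groups, and to 9.8 to 92.1 elsewhere. Across 8032 genes the deviation from a gene's mean rose with its GC content in the 4 SFA libraries (Spearman rho 0.36 to 0.56) and in TAC SFA-EAA replicate 1 (0.47). It fell with GC content in both sham SFA-EAA libraries (-0.65 and -0.45) and in TAC SFA-EAA replicate 2 (-0.76). The TAC SFA-EAA libraries therefore stood apart from each other: replicate 1 was closest in rank to sham SFA replicate 2 (rho 0.976) and replicate 2 to sham SFA-EAA replicate 1 (0.967). For this reason results are given as deposited, after a GC correction that subtracts from each library a smooth curve of its deviations on GC content, and without either TAC SFA-EAA library where that alters a call. Leaving out 1 of these libraries leaves 1 in its group. In the deposited values it does not change a difference between the other groups. It does change the spread that all groups share and the set of genes tested and adjusted over. That set held 15996 genes without replicate 1 and 16070 without replicate 2, against 16432 with all libraries. Without replicate 1, every SFA-EAA library left has the falling GC trend.

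All 40 genes were well expressed, with a mean of at least 50 in each case, between 43.1 (Tfeb in TAC SFA-EAA replicate 2) and 4156 (Ctsd in TAC SFA replicate 2). Together they made up 0.411% to 0.536% of a library. Per kilobase of the listed gene length, the mean level over the 8 libraries was highest for the ATG8 gene Map1lc3a, at 1673, and for the aspartic protease cathepsin D (Ctsd), at 1603. The lysosomal membrane glycoprotein Lamp1 followed at 923 per kilobase, then cathepsin B (Ctsb) at 579, Gabarap at 578, the cargo receptor Sqstm1 (p62) at 553, cathepsin L (Ctsl) at 514 and Trim63 at 399. The lowest levels per kilobase were those of the transcription factor Tfe3 (8.36), the PI3-kinase regulatory subunit Pik3r4 (11.3), the conjugation enzyme Atg7 (11.4) and Uvrag (12.4).

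The range over the 8 libraries was narrow. The highest library exceeded the lowest by a median of 1.43-fold over the 40 genes, and 55.0% of them stayed under 1.5-fold, against a median of 1.59-fold and 38.6% for the 8036 tested genes with a mean of at least 50. Lamp1 had the smallest range, 1.11-fold, with 2385 and 2445 in sham SFA (replicates 1 and 2, in this order throughout), 2483 and 2537 in sham SFA-EAA, 2408 and 2637 in TAC SFA, and 2453 and 2407 in TAC SFA-EAA. Tfeb had the largest range, 3.73-fold, and Map1lc3a was the other gene above 2-fold. Both have a GC content near 63.0%, the upper end of the group, whose median of 50.5% is close to the 49.6% of all tested genes.

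**Figure D1:**
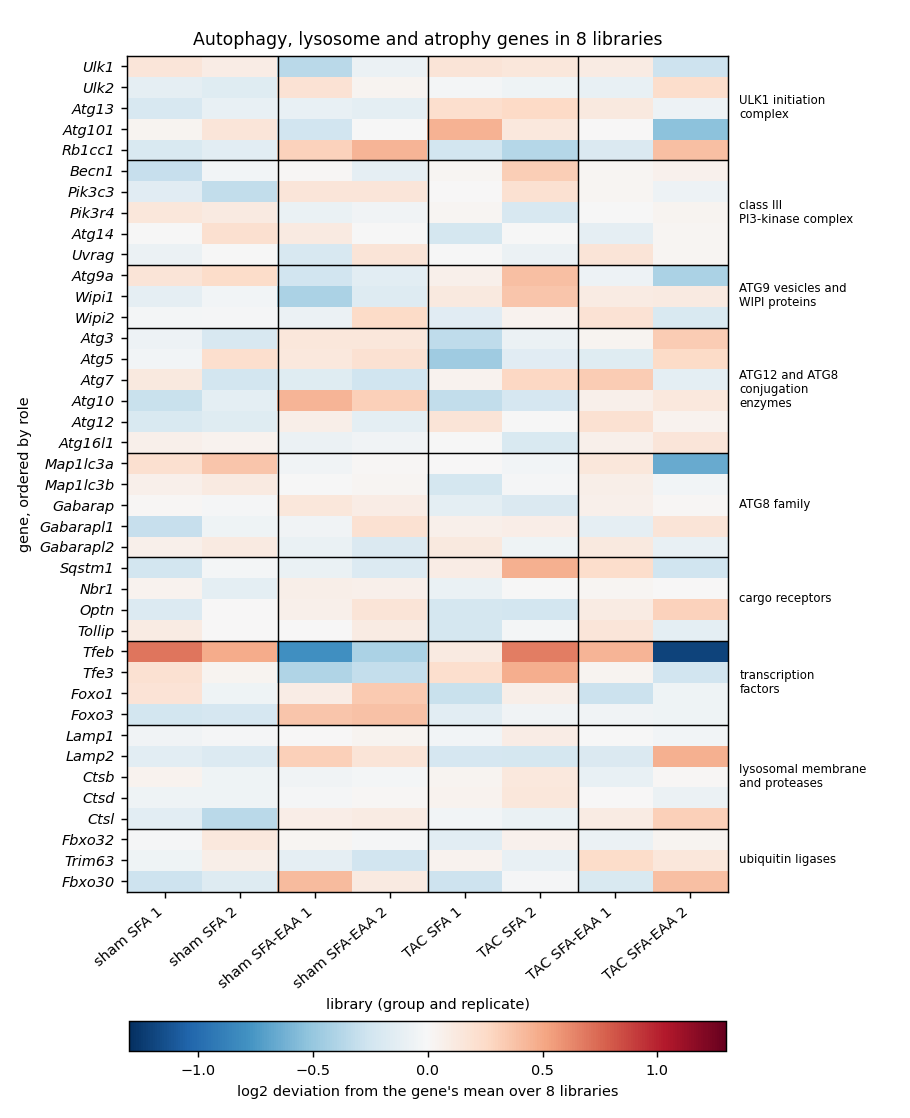
Log2 deviation of each of the 40 genes from its mean over the 8 libraries, with genes in rows grouped by role and libraries in columns grouped by operation and diet; the colour scale spans 1.3 log2 units either way. Most cells are pale, and Tfeb, with values from 43.1 to 161, is the most strongly coloured row.

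Promoter sequence is shown for 2 genes because TFEB and FoxO factors bind known short motifs there. RefSeq promoters (GRCm38.p6, 250 bases before to 50 after the start) were at hand for 32 of the 40 genes. The E-box CACGTG, which reads the same on both strands and is part of the longer motif bound by TFEB, occurred in 7 of these 32 (21.9%) and in 8.09% of 27025 genes with an entry. The 7 are Atg14, Atg3, Atg5, Atg7, Lamp1, Ctsd and Ctsl. Among the other lists it occurred in 4 of 12 V-ATPase subunits (33.3%), 10 of 31 further lysosomal hydrolases and membrane proteins (32.3%), 4 of 18 further atrophy genes and FoxO or TFEB relatives (22.2%), 4 of 27 further autophagy genes (14.8%) and 1 of 25 proteasome subunits (4.0%). A core FoxO motif, TGTTTAC or GTAAACA on the other strand, occurred in 1 of 32 (3.1%, Trim63) and in 4.05% of all. The stretches upstream of the starts of Lamp1 (chr8:13159040-13159160, plus strand, 4 matches lying 61 to 15 bases before the start) and of Trim63 (chr4:134314870-134314992, plus strand, the far end of its window, 1 match 194 bases before the start) are printed with the matches in capitals.
Lamp1: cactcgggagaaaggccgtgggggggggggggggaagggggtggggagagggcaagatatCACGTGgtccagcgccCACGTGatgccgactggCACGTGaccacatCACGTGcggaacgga
Trim63: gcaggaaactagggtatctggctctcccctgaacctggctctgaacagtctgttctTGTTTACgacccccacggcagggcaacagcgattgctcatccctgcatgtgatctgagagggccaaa
A match is a run of letters and no evidence of binding in these hearts.

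As the values were deposited, none of the 40 genes passed the test for TAC against sham under either diet. Under SFA, the differences from sham ran from -0.39 (Atg5) to 0.41 (Sqstm1) on the log2(value + 1) scale, with a median of -0.0046 against 0.01 for all tested genes. Under SFA-EAA they ran from -0.42 (Foxo3) to 0.40 (Wipi1), with a median of -0.03 against 0.00. Limma called 0 of 40 at an adjusted p under 0.05 under SFA, where 1.25% of all tested genes were called, and 0 of 40 under SFA-EAA, where 0.0122% were. At an unadjusted p under 0.05 the counts were 3 of 40 under each diet, against 13.4% and 8.57% of all tested genes. The 95% interval of the difference lay inside 2-fold for 39 of 40 genes under each diet, and inside 1.5-fold for 25 under SFA and 28 under SFA-EAA. Among tested genes with a mean of at least 50 the 2-fold shares were 85.9% and 90.5% and the 1.5-fold shares 43.2% and 50.6%. After the GC correction the calls were still 0 of 40 under each diet, beside 4.95% and 0.219% of all tested genes.

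**Figure D2:**
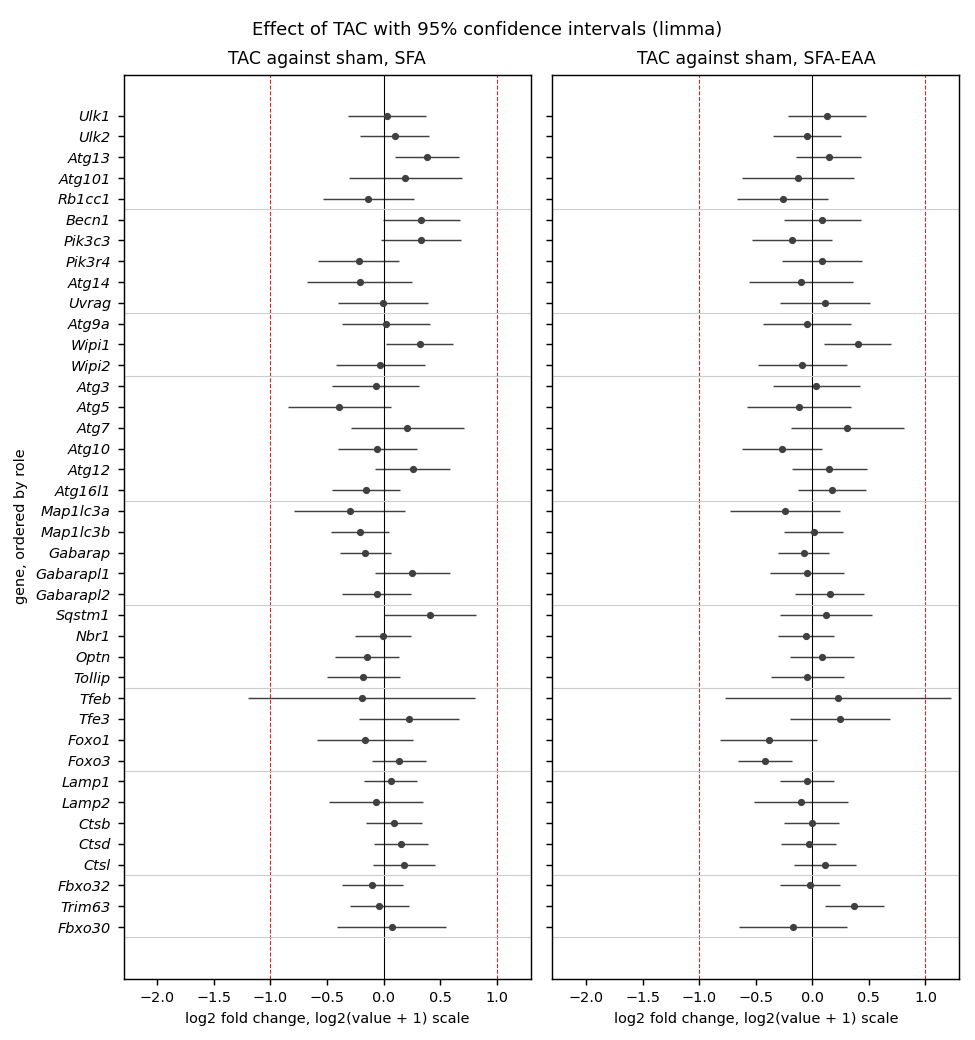
Log2 fold change of TAC against sham for each of the 40 genes under SFA (one panel) and under SFA-EAA (the other), points with 95% intervals from limma, and dashed lines at a change of 1 log2 unit either way. The intervals of 39 of 40 genes stay between the dashed lines in each panel.

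In the initiation machinery, Atg13, the adaptor that holds the ULK1 complex together, had the smallest p-value of the 40 under SFA. Its values were 249 and 271 in sham SFA, 270.4 and 264 in sham SFA-EAA, 335 and 344 in TAC SFA, and 316 and 275 in TAC SFA-EAA. All 4 TAC libraries lay above all 4 sham libraries, narrowly so for TAC SFA-EAA replicate 2. The TAC difference under SFA was 0.39 on the log2 scale (SE 0.13, 95% interval 0.10 to 0.67, 1.31-fold), with an adjusted p of 0.213 by limma with Benjamini-Hochberg adjustment. The other 4 members of the complex, the kinases Ulk1 and Ulk2, the small subunit Atg101 and the scaffold Rb1cc1, ranged from -0.13 to 0.19 under SFA.

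Becn1, the scaffold of the class III PI3-kinase complex, gave a similar picture. It measured 243 and 292 in sham SFA and 303 and 373 in TAC SFA, and 302 and 276 in sham SFA-EAA against 303 and 311 in TAC SFA-EAA. TAC libraries again lay above all sham libraries, by a margin under SFA-EAA that was within 1 unit. The difference under SFA was 0.33 (SE 0.15), with an adjusted p of 0.384 by limma. Of the other complex members, Pik3c3 gave 0.33 under SFA, and Pik3r4, Atg14 and Uvrag lay at or below 0 (lowest -0.22).

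Wipi1, which reads the PI3-kinase lipid on the growing membrane, was the gene with the most regular TAC difference. Its values were 526 and 555 in sham SFA, 427 and 507 in sham SFA-EAA, 621 and 732 in TAC SFA, and 613 and 617 in TAC SFA-EAA. Every TAC library exceeded every sham library. Sham SFA averaged 540.2 ± 20.8 and TAC SFA 676.5 ± 78.0 (SD, n = 2 each), and sham SFA-EAA 467.2 ± 56.5 and TAC SFA-EAA 615.0 ± 3.4. The difference was 0.32 (SE 0.13) under SFA and 0.40 (SE 0.13) under SFA-EAA, with adjusted p of 0.332 and 0.470 by limma. Averaged over both diets it was 0.36 (SE 0.09, 1.28-fold), and the adjusted p of 0.0956 missed the threshold. After the GC correction the averaged difference was 0.34 (SE 0.08) and Wipi1 was called higher, with an adjusted p of 0.0248 by limma. As deposited, 2 of 40 genes had an unadjusted p under 0.05 in this averaged comparison, against 15.3% of all tested genes. After the correction Wipi1 was the only call among the 40, where 6.1% of all tested genes were called. As deposited the calls were 0 of 40, beside 2.11%, and leaving out TAC SFA-EAA replicate 1 or 2 gave 2 (Wipi1 and Map1lc3a) and 1 (Rb1cc1), beside 6.61% and 5.62%. The call was lost after the correction without either sham SFA library, either sham SFA-EAA library, TAC SFA replicate 2 or TAC SFA-EAA replicate 2 (adjusted p 0.0502 to 0.124 by limma), and held without TAC SFA replicate 1 (0.0243) or TAC SFA-EAA replicate 1 (0.0149). Unlike Wipi1, the other genes called as deposited without a TAC SFA-EAA library were lower after TAC. The averaged difference was -0.47 for Map1lc3a without replicate 1 and -0.34 for Rb1cc1 without replicate 2. Wipi2, the relative of Wipi1, and Atg9a, the membrane protein of the donor vesicles, stayed between -0.09 and 0.02 under both diets.

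Averaged over both diets, 3 of 40 genes (Wipi1, Atg13 and Becn1) had every TAC library above every sham library and 0 had every TAC library below, a share close to the 6.48% of all tested genes whose libraries did not overlap. In the single comparisons 22 of 40 did not overlap under SFA (12 higher and 10 lower) and 15 under SFA-EAA (8 higher and 7 lower), against 47.4% and 36.6% of all tested genes.

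The ATG8 proteins and their conjugation enzymes gave smaller or mixed differences. Map1lc3b, the common LC3 form, measured 1040.1 and 1073 in sham SFA, 989.5 and 1010.0 in sham SFA-EAA, 847 and 985 in TAC SFA, and 1045 and 970.5 in TAC SFA-EAA. TAC SFA lay below sham SFA in both libraries, while the SFA-EAA groups overlapped. Its TAC difference was -0.21 under SFA (adjusted p 0.490 by limma) and 0.01 under SFA-EAA. Of the 5 ATG8 genes, 4 had a negative difference under SFA and 3 under SFA-EAA. Among the 6 conjugation enzymes, Atg5 had the lowest value under SFA (-0.39) and Atg12 the highest (0.26). Map1lc3b shares bases with Zcchc14 on the opposite strand, whose mean was 155, and whether the authors counted by strand is not given in the sources used here.

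Sqstm1, the cargo receptor p62, measured 1547 and 1802 in sham SFA, 1723 and 1615 in sham SFA-EAA, 1959 and 2521 in TAC SFA, and 2137 and 1534 in TAC SFA-EAA. Both TAC SFA libraries lay above both sham SFA libraries, whereas the TAC SFA-EAA libraries lay one above and one below their sham group. Under SFA the difference was 0.41 (SE 0.18, 1.34-fold) with an adjusted p of 0.369 by limma, and under SFA-EAA it was 0.12. The receptors Nbr1, Optn and Tollip lay between -0.18 and 0.08 under both diets.

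The 5 lysosomal genes lay between -0.10 and 0.18. Ctsd measured 3612 and 3623 in sham SFA, 3723 and 3799 in sham SFA-EAA, 3899 and 4156 in TAC SFA, and 3779 and 3566 in TAC SFA-EAA. Its TAC difference was 0.15 under SFA (adjusted p 0.621 by limma) and -0.03 under SFA-EAA. Ctsl measured 913 and 789 in sham SFA, 1065 and 1086 in sham SFA-EAA, 979 and 947 in TAC SFA, and 1082 and 1250.0 in TAC SFA-EAA. The TAC libraries were above sham under SFA and overlapped with sham under SFA-EAA. Beside these values, the summed level of 8 fibroblast markers was 4954 to 5753 in sham SFA and 10453 to 15050 in TAC SFA, with 3 of 8 called higher. That of 13 macrophage markers was 1402 to 1875 and 2218 to 2443, with 0 of 13 called. Their part in the lysosomal values was not tested.

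The muscle ubiquitin ligases did not share a direction. Trim63 measured 1087 and 1189.9 in sham SFA, 1042 and 950.1 in sham SFA-EAA, 1165 and 1054 in TAC SFA, and 1329 and 1244 in TAC SFA-EAA. The 2 TAC SFA-EAA libraries were the highest of all 8 and the 2 sham SFA-EAA libraries the lowest. Its TAC difference was 0.37 under SFA-EAA (SE 0.12, 1.29-fold, adjusted p 0.438 by limma) and -0.04 under SFA. Fbxo32 measured 794 and 884 in sham SFA, 819 and 794 in sham SFA-EAA, 729.6 and 839 in TAC SFA, and 765 and 824 in TAC SFA-EAA. Its groups overlapped in each of the 4 comparisons of 2 groups, with differences between -0.10 and 0.02. Fbxo30, a ligase of denervated muscle, gave 0.07 under SFA and -0.17 under SFA-EAA.

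**Figure D3:**
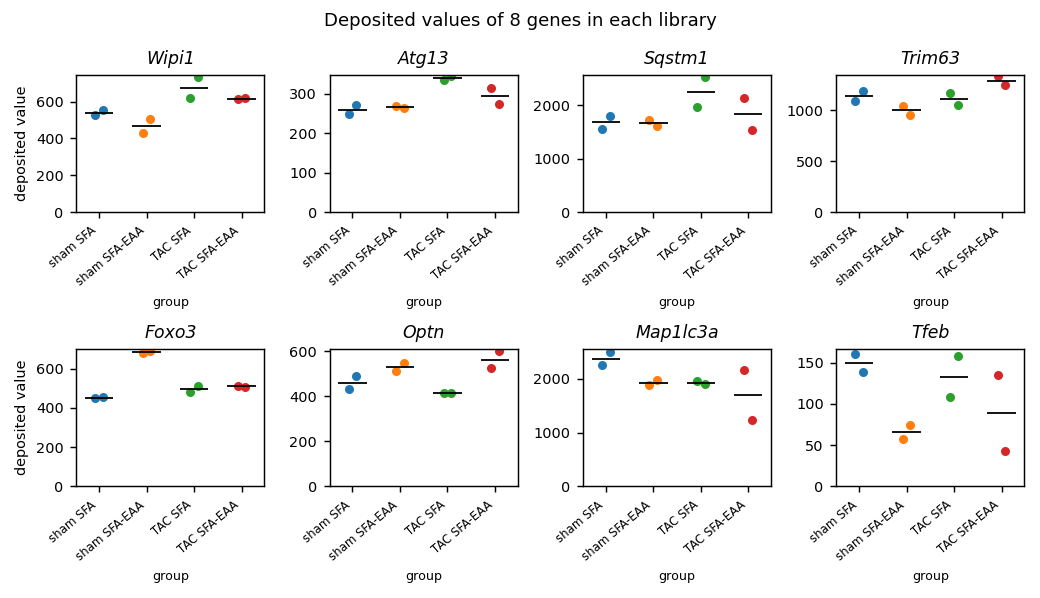
Deposited value per library for Wipi1, Atg13, Sqstm1, Trim63, Foxo3, Optn, Map1lc3a and Tfeb in the 4 groups, with points for libraries and bars at group means. The Foxo3 panel shows 678 and 689 in sham SFA-EAA against 449 to 513 in the other 6 libraries, and the Tfeb panel shows 3 low libraries, all on SFA-EAA.

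None of the 40 genes passed the test for SFA-EAA against SFA either, as the values were deposited. Limma called 0 of 40 in sham hearts, where 0.0% of all tested genes were called, and 0 of 40 in TAC hearts, where 0.0487% were. At an unadjusted p under 0.05 the counts were 8 of 40 in sham hearts and 7 of 40 in TAC hearts, against 14.8% and 15.1% of all tested genes. In sham hearts the libraries of the groups did not overlap for 28 of 40 genes (16 higher and 12 lower on SFA-EAA), against 55.2% of all tested genes. In TAC hearts this held for 19 of 40 (11 higher and 8 lower), against 42.8%. The median difference was 0.05 in sham hearts and 0.04 in TAC hearts, beside -0.01 and -0.03 for all tested genes. The 95% interval lay inside 2-fold for 39 of 40 genes in sham hearts and 38 in TAC hearts, against 81.6% and 82.7% among the 8036 more abundant genes.

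The order of the diet differences followed base composition. Across the 40 genes the Pearson correlation of GC content with the diet difference was -0.70 in sham hearts, -0.75 in TAC hearts and -0.78 averaged over both operations. The corresponding Spearman values were -0.61, -0.71 and -0.71, beside -0.74, -0.59 and -0.73 over 8032 genes. These genes share the same libraries, and the values are descriptions. After the GC correction the Pearson values among the 40 were 0.33, 0.12 and 0.28. TAC differences followed GC content less, at 0.05 under SFA and 0.20 under SFA-EAA as deposited.

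**Figure D4:**
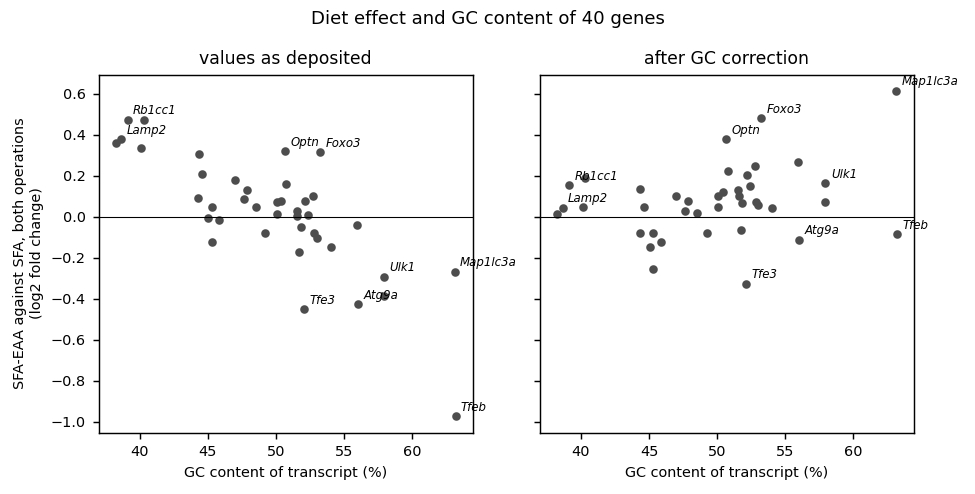
Log2 fold change of SFA-EAA against SFA, averaged over both operations, against the GC content in percent of the gene's longest transcript for the 40 genes, as deposited (left) and after the GC correction (right). The downward slope on the left (Pearson -0.78) is replaced by a weak upward one on the right (0.28), and Foxo3 lies above the other genes of its GC content in both panels.

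Several genes with low GC content had higher values on SFA-EAA. Atg10, the enzyme that joins ATG12 to ATG5 (GC 40.3%), measured 93.6 and 105 in sham SFA, 155 and 142 in sham SFA-EAA, 92.0 and 98.5 in TAC SFA, and 120.0 and 126 in TAC SFA-EAA. All 4 SFA-EAA libraries lay above all 4 SFA libraries. The difference was 0.58 (SE 0.16) in sham hearts and 0.37 (SE 0.16) in TAC hearts, with adjusted p of 0.267 and 0.317 by limma, and 0.47 averaged over both operations (0.0658). After the correction the averaged difference was 0.19 (adjusted p 0.426 by limma). As deposited, Atg10 was called in sham hearts without TAC SFA-EAA replicate 1 (adjusted p 0.0404 by limma) or 2 (0.0408), and in the averaged comparison without replicate 1 (0.0129) or with a filter at a mean of at least 5 (0.0462).

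Rb1cc1 (FIP200), the large scaffold of the ULK1 complex (GC 39.1%), measured 347 and 361 in sham SFA, 489 and 539.9 in sham SFA-EAA, 337 and 308 in TAC SFA, and 350.0 and 523 in TAC SFA-EAA. The 3 libraries in which signal fell with GC content were the 3 highest, and TAC SFA-EAA replicate 1 sat among the SFA libraries. The averaged diet difference was 0.47 (adjusted p 0.0846 by limma) as deposited and 0.15 (0.365) after the correction. Without TAC SFA-EAA replicate 1 and without the correction Rb1cc1 was called higher in sham hearts, in TAC hearts and in the averaged comparison (adjusted p 0.0175, 0.00815 and 0.000985 by limma), and without replicate 2 in sham hearts (0.0178). Lamp2 and Fbxo30, with GC contents of 38.7% and 38.2%, had averaged differences of 0.38 and 0.36 as deposited, and 0.04 and 0.01 after it. Ctsl (GC 44.3%) fell from an averaged difference of 0.31 (adjusted p 0.0913 by limma) to 0.13 (0.324). Lamp2, Fbxo30 and Ctsl were called higher in the averaged comparison as deposited without TAC SFA-EAA replicate 1, a fit with 1 TAC SFA-EAA library (differences 0.54, 0.50 and 0.36). Lamp2 was also called in TAC hearts without replicate 1 (difference 0.68) and in sham hearts without either TAC SFA-EAA library, where its difference stayed at 0.39.

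Several genes with high GC content had lower values on SFA-EAA. Tfeb (GC 63.2%) measured 161 and 139 in sham SFA, 57.1 and 74.9 in sham SFA-EAA, 108 and 158 in TAC SFA, and 135 and 43.1 in TAC SFA-EAA. The 3 libraries in which signal fell with GC content were again set apart, here as the lowest. In sham hearts the difference was -1.18 (SE 0.44, 95% interval -2.18 to -0.18) with an adjusted p of 0.297 by limma, and after the correction it was -0.09 (SE 0.20, adjusted p 0.916). As deposited, Tfeb was called lower in sham hearts without TAC SFA-EAA replicate 1 (adjusted p 0.0161 by limma) or 2 (0.0148), and without replicate 1 also in TAC hearts (0.00675) and in the averaged comparison (0.000857). Atg101, a small ULK1 complex subunit (GC 58.0%), measured 100.5 and 109 in sham SFA, 82.1 and 97.2 in sham SFA-EAA, 134 and 107 in TAC SFA, and 98.5 and 67.8 in TAC SFA-EAA. Both TAC SFA-EAA libraries lay below both TAC SFA libraries, with a difference of -0.55 (adjusted p 0.296 by limma) that became -0.14 (0.787) after the correction. Without replicate 1 of TAC SFA-EAA the deposited difference was -0.81 and was called (0.0334 by limma), as was the averaged one (0.0222).

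Atg9a (GC 56.0%) measured 209.8 and 219 in sham SFA, 157 and 169 in sham SFA-EAA, 194 and 244 in TAC SFA, and 178 and 139.7 in TAC SFA-EAA. All 4 SFA-EAA libraries lay below all 4 SFA libraries. The difference in TAC hearts was -0.46 (adjusted p 0.264 by limma) and became -0.18 (0.572) after the correction. It was called as deposited without TAC SFA-EAA replicate 1, at -0.64 in TAC hearts (0.0365 by limma) and -0.51 in the averaged comparison (0.00882). Atg9a overlaps Ankzf1 on the opposite strand, whose mean was 64.3. The GC trend separated the diets except for TAC SFA-EAA replicate 1, so for these genes it and a diet effect cannot be told apart in the deposited values. Without that replicate the trend and the diet match in every library left and TAC SFA-EAA holds 1 library, so calls made there carry the same limit.

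**Figure D5:**
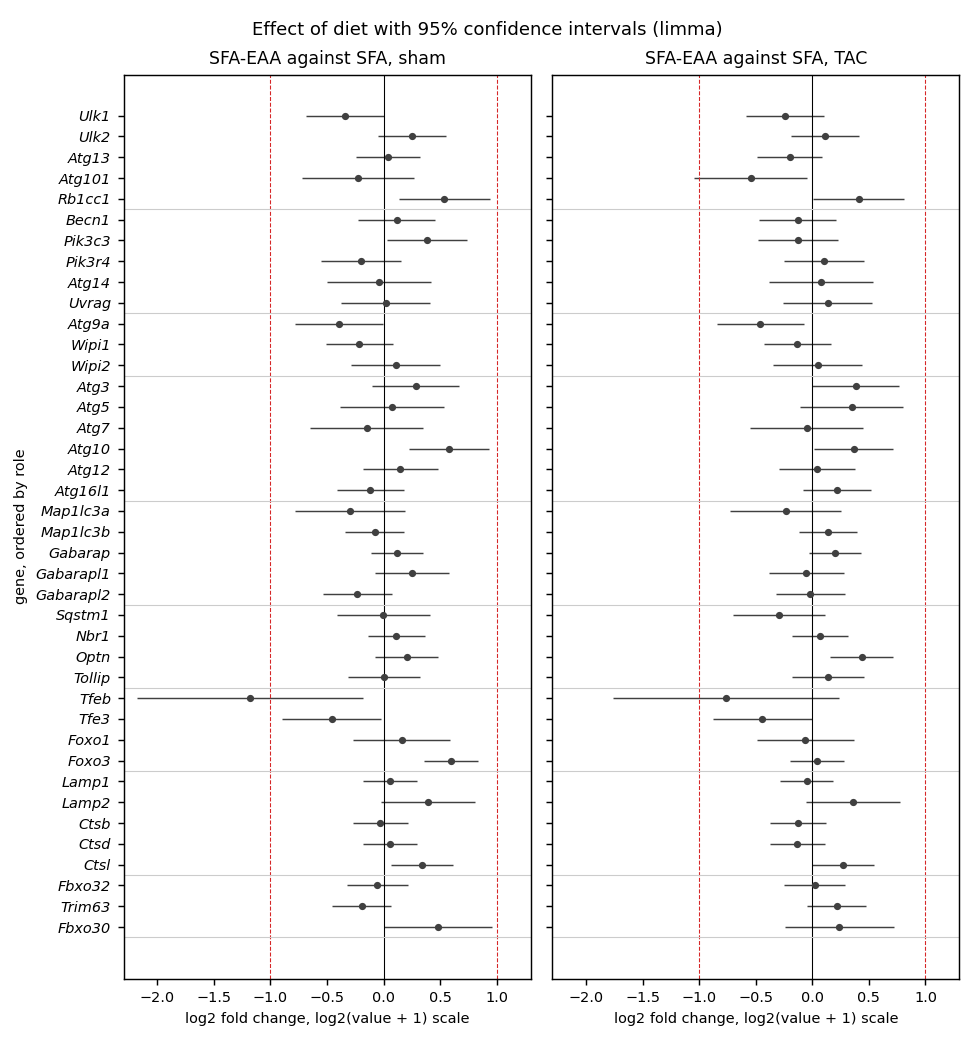
Log2 fold change of SFA-EAA against SFA for each of the 40 genes in sham hearts (one panel) and in TAC hearts (the other), points with 95% intervals from limma, and dashed lines at a change of 1 log2 unit either way. Tfeb, at -1.18 in sham hearts, has the lowest point and a wide interval, and Foxo3, at 0.59, has the highest point in sham hearts.

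Foxo3 and Optn had an averaged diet difference, higher on SFA-EAA, that did not shrink with the GC correction and was then called. Gabarap was not called but also stayed apart after it, with corrected log2 values of 10.11 to 10.26 on SFA-EAA and 9.82 to 10.02 on SFA. Foxo3, a FoxO factor of the atrophy and autophagy programme (GC 53.2%), measured 449 and 457 in sham SFA, 678 and 689 in sham SFA-EAA, 483 and 512 in TAC SFA, and 513 and 508 in TAC SFA-EAA. The 2 sham SFA-EAA libraries stood above the other 6, which lay close together. The group means were 452.6 ± 5.6 in sham SFA and 683.8 ± 7.7 in sham SFA-EAA (SD, n = 2 each). The diet difference in sham hearts was 0.59 (SE 0.11, 95% interval 0.36 to 0.83, 1.51-fold), with an adjusted p of 0.267 by limma. After the correction it was 0.77 (SE 0.10) and Foxo3 was called, with an adjusted p of 0.0449, the only call among the 40 where 0.0304% of all tested genes were called. As deposited, the call was also made when either TAC SFA-EAA library was left out (adjusted p 0.00787 without replicate 1 and 0.00771 without replicate 2 by limma), settings in which 5 of 40 genes and 7.3% and 7.24% of all tested genes were called. The corrected call was lost with the replicate block (adjusted p 0.0663 by limma) and without any 1 of the 4 sham libraries or the 2 TAC SFA libraries (0.0592 to 0.695), and held without either TAC SFA-EAA library (0.00256 and 0.00212). As deposited and without 1 of those 6 libraries, the adjusted p was 0.361 to 0.761. The gene gave 0.04 in TAC hearts (adjusted p 0.898 by limma).

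Across the 8 libraries the corrected log2 values of Foxo3 were 8.73 and 8.78 in sham SFA, 9.55 and 9.50 in sham SFA-EAA, 8.86 and 8.88 in TAC SFA, and 8.95 and 9.17 in TAC SFA-EAA. Every SFA-EAA library was then above every SFA library. Averaged over both operations the diet difference was 0.32 (SE 0.07) as deposited, with an adjusted p of 0.0672 by limma, and 0.48 (SE 0.07, adjusted p 0.00763) after the correction. This averaged call was lost without sham SFA replicate 1 (adjusted p 0.0740 by limma) or sham SFA-EAA replicate 1 (0.0513) and held without each of the other 6 libraries.

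In TAC hearts the correction gave 0 calls of 40, beside 1.69% of all tested genes, while leaving out TAC SFA-EAA replicate 1 gave 7 calls as deposited, beside 13.3%.

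Optn, a receptor for ubiquitinated cargo and mitochondria (GC 50.7%), measured 432 and 489 in sham SFA, 511 and 549.5 in sham SFA-EAA, 416 and 414 in TAC SFA, and 525 and 601 in TAC SFA-EAA. All 4 SFA-EAA libraries lay above all 4 SFA libraries. The diet difference in TAC hearts, 0.44 (SE 0.12, 1.36-fold), had the smallest p-value of the 40, with an adjusted p of 0.174 by limma. Without TAC SFA-EAA replicate 1 the deposited values gave a call in TAC hearts (0.0210 by limma) and in the averaged comparison (0.00912). Averaged over both operations it was 0.32 (SE 0.09, adjusted p 0.0869 by limma) as deposited and 0.38 (SE 0.08, adjusted p 0.0328) after the correction. The corrected call held without TAC SFA-EAA replicate 1 (adjusted p 0.00633 by limma) and was lost without each of the other 7 libraries (0.0557 to 0.195).

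Map1lc3a, the most abundant ATG8 gene per kilobase, changed direction with the correction. It measured 2247 and 2488 in sham SFA, 1881 and 1969 in sham SFA-EAA, 1946 and 1896 in TAC SFA, and 2150.5 and 1233 in TAC SFA-EAA. As deposited the averaged diet difference was -0.27 (SE 0.15, adjusted p 0.325 by limma). After the correction it was 0.61 (SE 0.11, adjusted p 0.0143), with corrected log2 values of 11.59 and 11.40 in sham SFA-EAA and 11.26 in TAC SFA-EAA replicate 2, against 10.48 to 10.72 in the other 5 libraries. TAC SFA-EAA replicate 1, at 10.67, stayed among the SFA libraries. The corrected call was lost without either sham SFA library, sham SFA-EAA replicate 1 or TAC SFA replicate 2 (adjusted p 0.0638 to 0.102 by limma). Without TAC SFA-EAA replicate 1 and without the correction the gene was called lower on SFA-EAA, at -0.47 (adjusted p 0.00165 by limma), and in TAC hearts at -0.64 (0.00601). Its direction under the diet depended on the correction.

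In the diet effect averaged over both operations limma called 0 of 40 as deposited and 3 of 40 after the correction (Foxo3, Optn and Map1lc3a), beside 1.21% and 2.68% of all tested genes. At an unadjusted p under 0.05 the deposited values gave 13 of 40 (8 higher and 5 lower), against 23.2% of all tested genes. For 7 of 40 genes the libraries of the 2 diets did not overlap at all, against 10.3%: Atg10, Atg3, Gabarap, Ctsl and Optn were higher in all 4 SFA-EAA libraries, and Atg101 and Atg9a lower. Without TAC SFA-EAA replicate 1 the deposited values gave 15 calls of 40, beside 22.4% of all tested genes, and without replicate 2 they gave 1 (Foxo3), beside 3.79%.

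The interaction asks whether the TAC difference under SFA-EAA differed from that under SFA. Limma called 0 of 40 genes, and 0.0% of all tested genes, with 3 of 40 at an unadjusted p under 0.05 against 5.49%. Foxo3 had the smallest p-value: TAC minus sham was 0.14 under SFA and -0.42 under SFA-EAA, an interaction of -0.56 (SE 0.15, 95% interval -0.89 to -0.22) with an adjusted p of 0.808 by limma. After the correction it was -0.57 (adjusted p 0.305 by limma), and 0 of 40 and 0.0% of all tested genes were called. After the correction and without TAC SFA-EAA replicate 2, Foxo3 was the 1 of 40 called in the interaction (adjusted p 0.0467 by limma), beside 0.697% of all tested genes, and without replicate 1 it was not called (0.374).

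The other genes with the smallest interaction p-values moved in different senses. Trim63 gave 0.41 (SE 0.16, adjusted p 0.878 by limma). Pik3c3, the catalytic subunit VPS34, measured 109 and 97.1 in sham SFA, 135 and 135 in sham SFA-EAA, 121 and 139 in TAC SFA, and 123 and 115 in TAC SFA-EAA. Only the sham SFA libraries lay below the others, and the interaction was -0.51 (adjusted p 0.878 by limma). Atg16l1, which places the conjugation complex on the membrane, measured 215 and 213 in sham SFA, 196 and 199 in sham SFA-EAA, 205 and 179.5 in TAC SFA, and 215 and 230.4 in TAC SFA-EAA, an interaction of 0.33 (adjusted p 0.909 by limma). Foxo1 measured 141 and 120.0 in sham SFA, 134 and 158 in sham SFA-EAA, 102 and 131 in TAC SFA, and 103 and 120.2 in TAC SFA-EAA. Its TAC libraries were below sham under SFA-EAA and overlapped with sham under SFA, with differences of -0.39 and -0.17 (adjusted p 0.617 and 0.797 by limma).

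Other genes of the pathway gave 1 call as deposited. Of 32 further autophagy genes, 17 V-ATPase subunits (the pump that acidifies lysosomes), 31 proteasome subunits and 24 further atrophy genes and FoxO or TFEB relatives, limma called 0 in each of the 7 comparisons. Of 37 further lysosomal hydrolases and membrane proteins 1 was called, Ctsk (cathepsin K), a collagen-degrading cathepsin. Over the 7 comparisons 0.0% to 2.11% of all tested genes were called. In the comparisons that called Ctsk the shares were 1.25% (TAC under SFA) and 2.11% (TAC averaged over both diets). Ctsk measured 13.5 and 19.2 in sham SFA, 20.7 and 23.5 in sham SFA-EAA, 54.0 and 88.1 in TAC SFA, and 29.8 and 45.5 in TAC SFA-EAA. Every TAC library lay above every sham library. The TAC difference was 2.03 (SE 0.34, adjusted p 0.0307 by limma) under SFA and 1.37 (SE 0.24, adjusted p 0.0281) averaged over both diets. Neither passed with no filter on low values (0.0854 and 0.0766). Both were lost without any 1 of the sham SFA, sham SFA-EAA or TAC SFA libraries (adjusted p 0.0572 to 0.320 under SFA and 0.0531 to 0.149 averaged, by limma) and held without either TAC SFA-EAA library. Fibroblast marker sums were 4954 to 5753 in sham SFA and 10453 to 15050 in TAC SFA. On SFA-EAA they were 4402 to 5079 in sham and 5143 to 6637 in TAC libraries, so TAC and sham overlapped across the diets. Their part in the Ctsk values was not tested.

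At an unadjusted p under 0.05, met by 13.4% of all tested genes, TAC under SFA gave 8 of the 37 lysosomal genes (5 higher and 3 lower), 2 of 31 proteasome subunits, 3 of 24 atrophy genes, 1 of 32 autophagy genes and 0 of 17 V-ATPase subunits. The averaged diet comparison, where 23.2% met it, gave 9, 12, 4, 9 and 5 of these lists. After the GC correction limma called, for TAC under SFA, 5 of 37 lysosomal genes (3 higher and 2 lower), 2 of 24 atrophy genes (both lower) and 0 in the other 3 lists, beside 4.95% of all tested genes. Apart from Ctsk these were the hydrolase Hexa (0.53) and the cathepsin Ctsz (0.68) higher, and Psap (-0.39), the precursor of the saposins, Ctsf (-0.68) and the ubiquitin ligase adaptors Fbxo21 (-0.54) and Fbxo31 (-0.50) lower. For the diet averaged over both operations, where 2.68% of all tested genes were called, it called 1 of 32 autophagy genes, 1 of 17 V-ATPase subunits, 2 of 24 atrophy genes and 0 in the other 2 lists: the SNARE Vamp8 (0.61), the chaperone-linked ligase Stub1 (0.40) and Fbxo31 (0.43) higher and the V-ATPase subunit Atp6v0a1 (-0.47) lower. As deposited, Stub1 and Fbxo31 were lower on SFA-EAA in sham hearts. Stub1 measured 541 and 562 in sham SFA against 381 and 504 in sham SFA-EAA, and Fbxo31 459 and 438 against 341 and 434. In TAC hearts the diets overlapped for both (Stub1 422 and 451 in TAC SFA against 525 and 278 in TAC SFA-EAA, Fbxo31 299 and 348 against 459 and 231). For TAC averaged over both diets, where 6.1% were called, it called 5 of 37 lysosomal genes (4 higher and 1 lower), 4 of 24 atrophy genes (1 higher and 3 lower) and 0 in the other 3 lists. These were Ctsz (0.50), Hexa (0.37), Ctss (0.71), the cysteine cathepsin of macrophages, and the translation inhibitor Eif4ebp1 (0.43) higher, Psap (-0.28), Ube2b (-0.28), Stub1 (-0.35) and Fbxo31 (-0.44) lower, and Ctsk. Macrophage marker sums were 1303 to 1875 in sham and 1923 to 2443 in TAC libraries. As deposited, 2 of 13 macrophage markers were called higher for TAC averaged over both diets, beside 2.11% of all tested genes. The part of macrophages in the Ctss values was not tested.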

How the data were processed

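Ventricular polyA RNA was prepared with a stranded kit, per the labels' protocols. Per the submitters' processing notes, STAR 2.5, the GRCm38 build and edgeR were used by the authors. How reads were counted, with which strand setting and which filter, is not given in the sources used here. The deposited signal per gene is normalized by the authors and not whole, so no count test was run.

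The table lists 49671 genes. Limma-trend (limma 3.58.1, R 4.3.3) was fitted to log2(value + 1) for 16432 genes (filter: 2 or more libraries at a value of 1 or above). The 4 group means shared 1 spread. Each of the 7 two-sided comparisons was adjusted by Benjamini-Hochberg over all genes, at a threshold of 0.05. The GC correction subtracts a loess curve (span 0.3, fitted on genes with a mean of at least 50) on the GC content of the longest GENCODE transcript, available for 99.8% of tested genes. This left library-wise rho values of -0.03 to 0.04. Combining it with leaving out a library was added after seeing the data. Other alternatives were a pseudocount of 0.25, a mean of at least 5, no filter, median-of-ratios or quantile scaling, a replicate block, fits to 4 libraries, and leaving out each library.

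The members, roles and further gene lists were chosen with earlier results of these data known. Named with the value in every library are genes called, the 4 with the smallest p-values per comparison, and a panel of Map1lc3b, Sqstm1, Tfeb, Lamp1, Ctsd, Ctsl, Fbxo32, Trim63, Foxo1 and Foxo3; Map1lc3a was added for its call after the correction. From the further lists, up to 4 called genes per comparison are given; all called after the correction are named. Of the 40 genes, 18 overlap another gene, 3 of them one with a mean of at least 50 (Atg9a, Map1lc3b and Ctsb), so reads could be shared where strand was not used. Scripts were tested on simulated data. Tables and figures were made in Python 3.11.15 with matplotlib 3.10.9, numpy 2.4.6 and pandas 2.3.3.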

Additional observations from a re-analysis of the deposited data

Results flagged for a closer look

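For 6 of the 40 genes the libraries of one comparison lay wholly to one side and those of the matching comparison wholly to the other, 15.0% of them, against 7.11% of all 16432 tested genes. Foxo3 was higher after TAC under SFA and lower after TAC under SFA-EAA, with an interaction of -0.56 on the log2 scale (adjusted p 0.808 by limma). Pik3c3 showed the same pattern, with -0.51 (0.878 by limma). Pik3r4 showed the opposite one, lower after TAC under SFA and higher under SFA-EAA, with 0.30 (0.914 by limma). Trim63 was lower on SFA-EAA in sham hearts and higher on it in TAC hearts, with 0.41 (0.878 by limma), and Ctsd was higher in sham and lower in TAC hearts, with -0.19 (0.924 by limma). Atg16l1 had opposite sides for both the operation and the diet, with 0.33 (0.909 by limma). The test of the difference passed for 0 of the 6.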

How the results depend on the processing

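As deposited, 0 of 40 genes were called in each of the 7 comparisons. This count did not move with a pseudocount of 0.25, no filter, the replicate block, quantile or median-of-ratios scaling, or a fit to the 4 libraries compared, and a mean of at least 5 gave 1 call, Atg10, in the averaged diet effect. With 1 library left out, calls among the 40 came only without TAC SFA-EAA replicate 1 or 2, which leaves 1 library in that group. They fell in the diet in sham hearts and in TAC hearts, in averaged TAC and in the averaged diet effect. The GC correction gave 1 call (Foxo3) for the diet in sham hearts, beside 0.0304% of all tested genes. It gave 1 (Wipi1) for averaged TAC, beside 6.1%, and 3 (Foxo3, Map1lc3a and Optn) for the averaged diet effect, beside 2.68%. With the replicate block as well the calls were 0, 1 and 3. Shares of all tested genes with that block, or with a mean of at least 5, are not given here.

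The correction without 1 library gave for averaged TAC 1 call without TAC SFA replicate 1, TAC SFA-EAA replicate 1 or TAC SFA-EAA replicate 2, beside 5.81%, 8.11% and 6.1% of all tested genes. For the averaged diet effect it gave 1 without sham SFA replicate 2 or TAC SFA replicate 2 (0.796% and 0.894%), 2 without sham SFA-EAA replicate 2, TAC SFA replicate 1 or TAC SFA-EAA replicate 2 (0.684%, 2.8% and 2.55%), and 6 without TAC SFA-EAA replicate 1 (6.67%). For the diet it gave 3 in sham hearts without either TAC SFA-EAA library (Foxo3, Map1lc3a and Ctsd), beside 1.3% and 1.4%, and 2 in TAC hearts without TAC SFA-EAA replicate 1, beside 3.32%. For TAC under SFA-EAA it gave 2, and for the interaction 1, without TAC SFA-EAA replicate 2, beside 0.61% and 0.697%.

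The averaged diet difference of Map1lc3a turned from -0.27 to 0.61 with the correction, with or without the replicate block. With the correction it was 0.62 and 0.61 without sham SFA replicates 1 and 2, 0.57 and 0.67 without sham SFA-EAA replicates 1 and 2, 0.64 and 0.59 without TAC SFA replicates 1 and 2, 0.76 without TAC SFA-EAA replicate 1 and 0.47 without replicate 2. The diet difference of Foxo3 in TAC hearts, 0.04, ranged from -0.004 to 0.0795 without 1 library. Beside these, 548 values of single genes kept their direction and side of the threshold, 37 passed it and 15, all of Ctsk, no longer did. The cause of these shifts was not tested. Same-numbered libraries did not deviate together (correlations -0.32 to 0.06 over 8032 genes), and the block alone changed no count. With 2 libraries per group and a GC trend in these deviations, the correlations cannot show whether the numbers pair samples, and the labels do not say.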
